A study of Mus musculus with 14 samples.

Results

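The 40 genes described here encode collagens and other secreted proteins of connective tissue matrix. They were chosen by name, as matrix genes of fibroblasts, with earlier results of these data known. Each name matched 1 of the 55487 genes in the count table. Their transcripts were followed in macrophages sorted from mouse colon lamina propria, and in CD44+ epithelial cells from the same tissue as a reference for carried-over RNA. All animals were Tsc2fl/fl, so both copies of Tsc2, which encodes the mTORC1 restraining protein tuberin, were floxed in every group. The cre groups were Tsc2fl/fl Lyz2cre/+, with Cre recombinase driven by the lysozyme locus that is active in myeloid cells, and the wt groups were Tsc2fl/fl Lyz2+/+. The recombinase and the loss of Tsc2 cannot be told apart, since both always occurred together, and the age of the animals is not given in the sources used here. The macrophages (3 wt and 3 cre libraries) were CD45+, CD11b+, CD64+ and MHCII+ cells that were negative for CD103, the product of Itgae. The epithelial cells (4 wt and 4 cre libraries) were CD45- and EpCAM+.

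Fibroblasts, muscle cells, pericytes and endothelial cells secrete most of the matrix of the gut wall. Collagens I, III and V form fibrils that small leucine-rich proteoglycans bind and space, elastin is laid on fibrillin microfibrils, and collagen IV, laminins and nidogen build the sheets of basement membrane under epithelium and around vessels. Macrophages of the lamina propria lie within this matrix, take up and degrade its proteins, and are not regarded as a main source of fibrillar collagen. In RNA from a sorted bulk population, fewer cells of a type and less RNA per cell cannot be told apart.

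The 14 libraries held between 7269103 and 9364551 counts. Libraries are named by genotype and mouse number. Wt 2 and wt 4 came from females, and wt 6 and all 3 cre macrophage libraries came from males, so sex was not balanced between the genotypes. Cre 8 stood apart: 9.83% of its counts were mitochondrial, against 4.51% to 6.45% in the other macrophage libraries. CT010467.1, a ribosomal RNA gene, accounted for 25.5% of the counts of cre 8 and 26.4% of those of cre 10, against 19.1% to 20.6% in the other macrophage libraries. The sort was reflected in its marker genes: the 12 macrophage identity genes summed to between 7873 and 15861 CPM in macrophage libraries and to between 35.4 and 101 in epithelial ones. CPM are counts brought to a common library size (scaled by TMM), which compare 1 gene across libraries, whereas FPKM is also divided by gene length and is used to compare genes.

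Transcripts of the matrix genes were present in every macrophage library, and most were lower in cre. Together the 40 genes summed to 12691 CPM in wt 2, 15668 in wt 4 and 8808 in wt 6, and to 3416 in cre 8, 7436 in cre 9 and 4899 in cre 10. The genotypes did not overlap, with means of 12389 ± 3440 CPM for wt (SD, n = 3) and 5250 ± 2033 CPM for cre (SD, n = 3). Of the 40 genes, 34 had a negative log2 change (cre over wt) and 6 a positive one. Their median log2 change was -1.05, against 0.0038 over the 14087 genes tested, of which 49.5% were negative. In 21 of the 40 genes all 3 wt libraries stood above all 3 cre libraries, a pattern seen in 10.1% of all genes tested. The reverse pattern, seen in 9.71% of all genes, occurred in 0 of the 40. Because the 40 genes were chosen with earlier results known, these shares and those below describe the list and do not test it.

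Of the 40 genes, 5 fell in cre macrophages by edgeR's quasi-likelihood test at a Benjamini-Hochberg adjusted p under 0.05, a call made for 0.213% of all genes tested. None rose, against 0.731% of all genes, and none rose by DESeq2 (2.2% of all genes). At an unadjusted p under 0.05, 24 of the 40 were lower and 0 higher, where 5.98% of all genes were lower and 6.81% higher. The 5 were Mfap4, C1qtnf3, Fbln1, Ccdc80 and Fbln5. The count was 0 with sex as a covariate (0% of all genes called lower), 0 in males alone (0.0767%), 0 without wt 4 (0.0272%), cre 8 (0.0338%) or cre 10 (0%), and 1 without wt 2 (0.0545%), whereas DESeq2 called 17 (1.8%). The 5 log2 changes stayed negative under each of the 14 alternative settings, but were smaller with sex as a covariate: Fbln1 went from -1.91 to -0.94, Mfap4 from -2.10 to -1.29, Ccdc80 from -1.89 to -1.43 and Fbln5 from -1.76 to -1.42, while C1qtnf3 went from -1.97 to -1.93. The median of the 40 genes was -0.63 with that covariate and also in males alone. These are not separate checks: no cre macrophage library was female, so in both the change rests on wt 6 as the only male wt library. Wt 6, the male wt library, stood above all 3 cre libraries in 24 of the 40 genes while being the lowest wt library in 25. The share of all genes with either pattern was not computed, so these counts have no background to be read against.

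**Figure D1:**
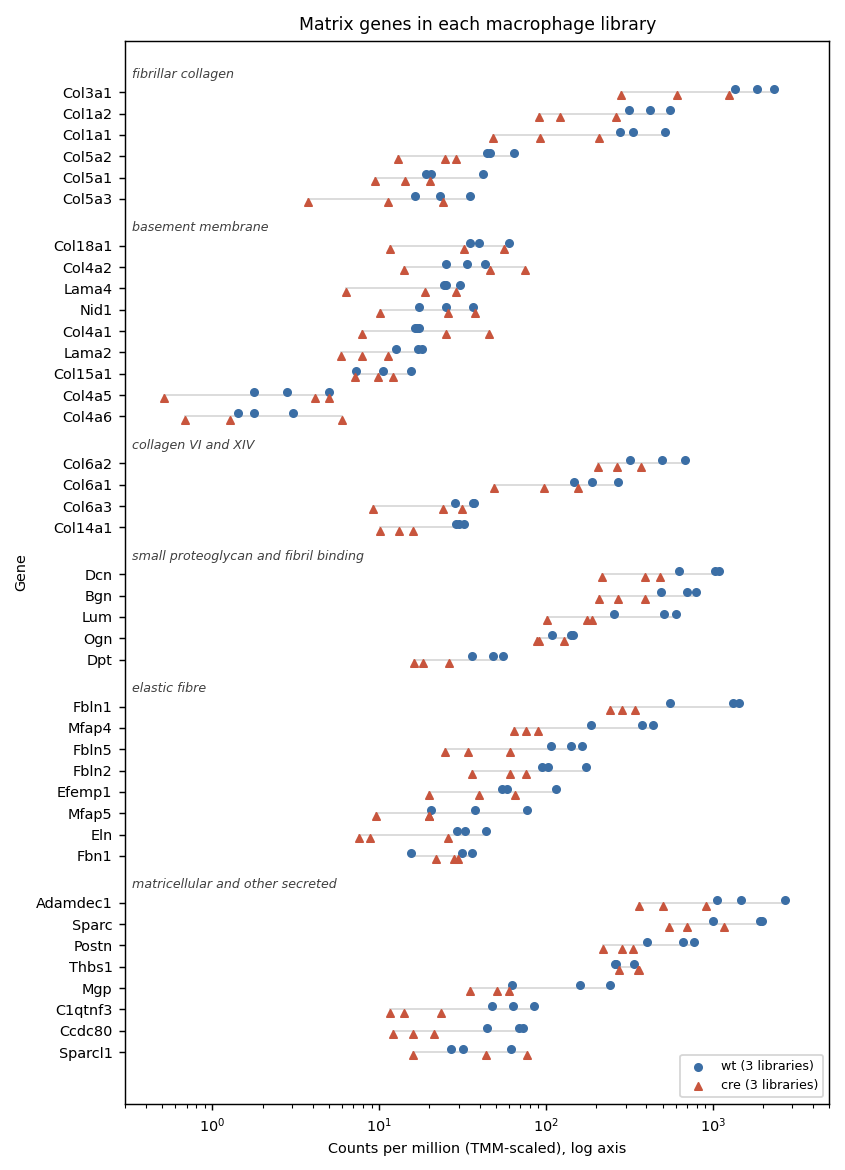
Level of each of the 40 matrix genes in the 3 wt (circles) and 3 cre (triangles) macrophage libraries, in CPM on a log axis, grouped by the role of the protein. Outside the basement membrane group most circles lie to the right of the triangles, and in 21 genes the 2 sets do not overlap.

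The upstream sequence of 3 of the 5 genes that fell, and of Col3a1, the most abundant fibrillar collagen transcript, is printed here to show what letters the genes share there. RefSeq entries of GRCm38.p6 matched 26 of the 40 genes by symbol. Each sequence is the 250 bases before the start site, 5′ to 3′ on the gene's strand, with the matches to the motifs searched in capitals. The motifs, searched on both strands, were TATAAA of the TATA box, CCAAT of the CCAAT box, GGGCGG of the GC box and CACGTG of the E-box, and none overlaps another in these windows.
Fbln1, chr15:85205699-85205948, plus strand: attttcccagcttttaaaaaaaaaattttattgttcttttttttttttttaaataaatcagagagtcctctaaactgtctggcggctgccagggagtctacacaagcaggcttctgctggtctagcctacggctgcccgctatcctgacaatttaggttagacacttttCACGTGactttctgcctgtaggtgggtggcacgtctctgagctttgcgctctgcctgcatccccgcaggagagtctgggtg
Fbln5, chr12:101819120-101819369, minus strand: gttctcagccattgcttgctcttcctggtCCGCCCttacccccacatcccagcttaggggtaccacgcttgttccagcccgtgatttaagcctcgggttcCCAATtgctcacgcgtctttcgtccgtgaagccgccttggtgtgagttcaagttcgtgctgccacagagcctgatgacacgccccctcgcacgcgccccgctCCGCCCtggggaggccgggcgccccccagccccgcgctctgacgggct
C1qtnf3, chr15:10952082-10952331, plus strand: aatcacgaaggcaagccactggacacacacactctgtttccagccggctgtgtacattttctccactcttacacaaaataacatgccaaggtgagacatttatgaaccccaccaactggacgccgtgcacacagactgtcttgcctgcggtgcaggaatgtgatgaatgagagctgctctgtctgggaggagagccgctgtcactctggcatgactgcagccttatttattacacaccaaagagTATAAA
Col3a1, chr1:45311288-45311537, plus strand: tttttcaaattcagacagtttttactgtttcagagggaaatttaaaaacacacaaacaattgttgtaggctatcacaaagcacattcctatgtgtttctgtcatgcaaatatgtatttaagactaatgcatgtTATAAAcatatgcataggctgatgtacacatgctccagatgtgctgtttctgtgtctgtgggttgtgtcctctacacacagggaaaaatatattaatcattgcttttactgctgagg
The RefSeq start of Fbln5 lay 64 bases upstream of the gene's 5′ end in the count table. No motif was common to the 4 windows. Fbln1 held CACGTG beginning 81 bases before its start, a motif held by this gene alone among the 26 and by 6% of 32851 windows of this length. Fbln5 held CCAAT at 150 bases and GGGCGG, on the other strand, at 221 and 48 bases. C1qtnf3 held TATAAA at 6 bases and Col3a1 at 117 bases. Over the 26 windows TATAAA occurred in 4, against 12.4% of all windows, CCAAT in 8 (33.8% of all windows) and GGGCGG in 14 (32.7%). Each of the 26 genes has a single window, at the start site nearest its 5′ end in the count table. The 32851 windows are all entries, without that choice. These matches describe the letters only.

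The 8 elastic fibre genes held 3 of the 5 calls, and all 8 had a negative log2 change, with a median of -1.35. Mfap4 (ENSMUSG00000042436, chromosome 11, 61485431 to 61488900, GRCm38) encodes a glycoprotein that binds elastin and collagen at microfibrils. It stood at 377, 436 and 187 CPM in wt 2, 4 and 6 and at 75.8, 89.8 and 64.1 CPM in cre 8, 9 and 10. The lowest wt library was above the highest cre library, and Mfap4 fell by 2.10 on the log2 scale (SE 0.30, edgeR adjusted p = 0.0227). Its locus overlaps Mapk7, which had at most 128 counts in any macrophage library, and the reads of overlapping genes cannot be told apart without strand. Fbln1 (ENSMUSG00000006369, chromosome 15, 85205949 to 85286535), which encodes fibulin-1 of basement membranes and elastic fibres, stood at 1438, 1318 and 557 CPM in wt and 243, 344 and 285 CPM in cre. Fbln1 was lower in the male wt 6 than in both female wt libraries, did not overlap cre, and fell by 1.91 on the log2 scale (SE 0.33, edgeR adjusted p = 0.0383). Fbln5 (ENSMUSG00000021186, chromosome 12, 101746565 to 101819055) encodes fibulin-5, which helps to assemble elastin into fibres. It stood at 164, 142 and 108 CPM in wt and 25.0, 61.2 and 33.9 CPM in cre, where cre 9 was the highest, and fell by 1.76 (SE 0.32, edgeR adjusted p = 0.0458).

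Elastin itself, Eln, had 43.7, 32.6 and 29.2 CPM in wt against 7.52, 26.0 and 8.75 in cre. The groups did not overlap, but the log2 change of -1.29 (SE 0.44) did not pass (edgeR adjusted p = 0.268). Fbln2 (-1.09) and the microfibril protein gene Mfap5 (-1.42) also separated the genotypes without passing. Efemp1, which encodes fibulin-3, had a log2 change of -0.85 with overlapping groups. Fbn1, which encodes the fibrillin-1 backbone of the microfibril, ranged from 15.5 to 36.2 CPM in wt and from 21.9 to 29.7 in cre, with a log2 change of -0.04 (SE 0.30). Fbn1 was the elastic fibre gene with the smallest change, and its lowest library was wt 6.

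The 8 matricellular and other secreted proteins held the other 2 calls, and 6 of the 8 log2 changes were negative (median -1.34). Ccdc80 (ENSMUSG00000022665, chromosome 16, 45093402 to 45128077), which encodes a secreted protein that associates with matrix, stood at 68.4, 73.0 and 44.4 CPM in wt and at 12.1, 21.3 and 15.9 CPM in cre. It fell by 1.89 (SE 0.27, edgeR adjusted p = 0.0220), the smallest adjusted p of the 40 genes. C1qtnf3 (ENSMUSG00000058914, chromosome 15, 10952332 to 10980150) encodes a secreted relative of the complement protein C1q. It stood at 47.5, 84.4 and 63.0 CPM in wt and at 11.6, 23.4 and 14.2 CPM in cre. Here wt 6 lay between the 2 female libraries, and C1qtnf3 fell by 1.97 (SE 0.32, edgeR adjusted p = 0.0285). Among the 40 genes, C1qtnf3 was also the only call left without wt 2.

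Adamdec1, a secreted metalloprotease of the gut lamina propria, had the highest level per length of the 40 genes, at a mean of 394 FPKM over the 6 macrophage libraries. It stood at 1055, 2704 and 1470 CPM in wt and at 360, 906 and 500 CPM in cre. Adamdec1 did not overlap between genotypes, yet it varied more than 2-fold within each, and its log2 change of -1.56 (SE 0.45) did not pass (edgeR adjusted p = 0.210). Sparc, a matricellular protein that binds collagen, was next at 368 FPKM. Its levels were 1919, 1966 and 1008 CPM in wt and 547, 1167 and 705 CPM in cre, so that cre 9 lay above wt 6 (log2 change -1.0, SE 0.33, adjusted p = 0.248). Periostin, Postn, did not overlap (-1.13, adjusted p = 0.0891), nor did Mgp, which encodes matrix Gla protein (-1.64, adjusted p = 0.188). Thrombospondin-1, Thbs1, and Sparcl1 were positive, both at 0.21, with overlapping groups. Thbs1 was the only gene of the 40 whose highest library was cre 8, at 361 CPM, and its 6 libraries spanned 260 to 361 CPM.

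All 6 fibrillar collagen genes had a negative log2 change (median -1.28). None passed by edgeR, and 4 were lower at an unadjusted p under 0.05 (5.98% of all genes). DESeq2 called Col1a2 and Col5a2 lower (1.8% of all genes). Col3a1, the collagen III chain (chromosome 1, 45311538 to 45349706), was the highest per length, with a mean of 189 FPKM. It stood at 1831, 2328 and 1361 CPM in wt and at 281, 1248 and 613 CPM in cre. The lowest wt and the highest cre library of Col3a1 were close, and the log2 change of -1.35 (SE 0.52) did not pass (adjusted p = 0.356). Col1a2, a chain of collagen I, stood at 420, 550 and 313 CPM in wt and at 90.6, 262 and 121 CPM in cre (-1.42, SE 0.40, adjusted p = 0.189). In both genes cre 9 was the highest cre library and cre 8 the lowest. Col1a1 (-1.67) and Col5a2 (-1.20) also did not overlap, whereas Col5a1 (-0.87) and Col5a3 (-0.89) did. The FPKM ratio of Col1a1 to Col1a2, the 2 chains of collagen I, was 0.71 to 0.84 in wt and 0.48 to 0.72 in cre.

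The 5 small proteoglycan and fibril binding genes were all negative (median -1.17). Of these, 4 separated the genotypes with wt above (10.1% of all genes), and 4 were lower at an unadjusted p under 0.05 (5.98%). Decorin, Dcn (chromosome 10, 97479609 to 97518143), stood at 1031, 1091 and 629 CPM in wt and at 215, 484 and 393 CPM in cre. The log2 change of Dcn was -1.31 (SE 0.31, adjusted p = 0.114). Biglycan, Bgn, stood at 702, 797 and 486 CPM in wt and at 208, 395 and 269 CPM in cre (-1.17, SE 0.27, adjusted p = 0.0939). Lumican, Lum (-1.54, adjusted p = 0.0937), and dermatopontin, Dpt (-1.17, adjusted p = 0.0736), did not overlap either. Dcn, Bgn, Lum and Dpt missed edgeR's threshold and were called by DESeq2, which called 1.8% of all genes lower. Ogn, which encodes mimecan of the same proteoglycan class, ranged from 108 to 145 CPM in wt and from 88.5 to 128 in cre, with a log2 change of -0.35 (SE 0.20). Per length, the ratio of Ogn to Dcn was 0.0792 to 0.174 in wt and 0.170 to 0.317 in cre, a pair chosen after the values were seen.

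In the group of collagens VI and XIV all 4 log2 changes were negative (median -0.90). Collagen VI forms beaded filaments beside cells, and collagen XIV binds the surface of fibrils. Col6a2 stood at 495, 685 and 320 CPM in wt and at 205, 374 and 265 CPM in cre, and Col6a1 at 188, 271 and 148 CPM and at 48.7, 156 and 97.4 CPM. In both genes cre 9 lay above wt 6, and neither passed (-0.82, SE 0.30, adjusted p = 0.305, and -0.99, SE 0.41, adjusted p = 0.374). Col14a1 was tight within each genotype, at 29.1 to 32.4 CPM in wt and 10.1 to 16 in cre. Its log2 change was -1.20 (SE 0.23) and its adjusted p of 0.0510 was the nearest to the threshold among those of the 40 genes that missed it. Col14a1 passed with RLE size factors, with DESeq2 and with no filter on low counts.

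The 9 basement membrane genes were split in direction. Of these, 5 log2 changes were negative and 4 positive, with a median of -0.07. None passed by edgeR or DESeq2, and Lama2 alone was lower at an unadjusted p under 0.05 (5.98% of all genes). They summed to 170, 210 and 163 CPM in wt and to 66.2, 277 and 169 CPM in cre, so that cre held both the lowest and the highest library. Col4a2, a chain of collagen IV, stood at 25.1, 42.9 and 33.6 CPM in wt and at 14, 75.1 and 46.1 CPM in cre (log2 change 0.43, SE 0.54). Its sign rested on cre 9: without it the change was -0.15. Col4a1 (0.65, SE 0.51) was within 16.4 to 17.4 CPM in wt and ran from 7.87 to 45.4 in cre. Col18a1, the precursor of endostatin, stood at 35.2, 59.8 and 39.9 CPM in wt and at 11.6, 55.7 and 32.1 CPM in cre (-0.42, SE 0.50). Nid1 (-0.07), Col15a1 (-0.18) and Lama4 (-0.54) overlapped, and Lama2 (-0.90), the laminin chain of muscle basement membrane, did not overlap. Col4a5 and Col4a6 were the lowest of the 40 genes, at 0.41 and 0.29 FPKM, where counting error is large.

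**Figure D2:**
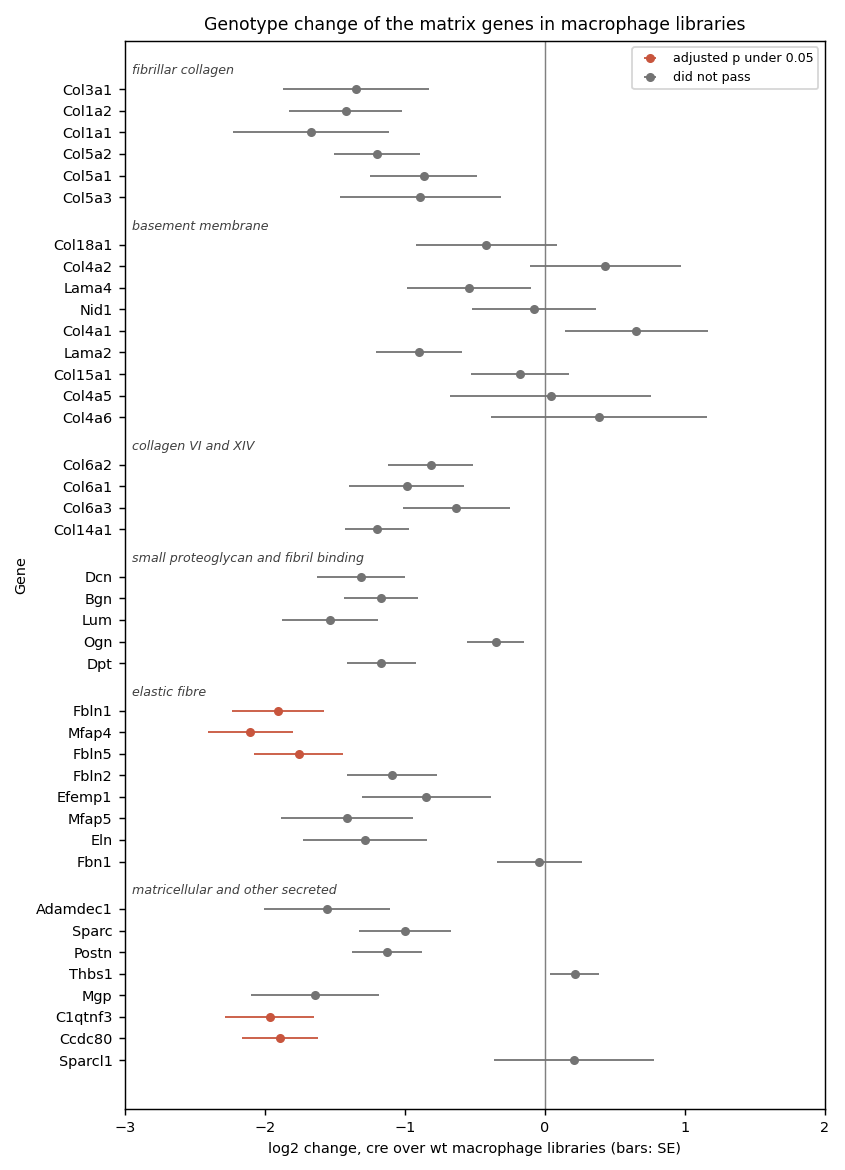
The log2 change (cre over wt) of each matrix gene in macrophage libraries from edgeR, with bars of 1 SE; red marks the 5 genes with an adjusted p under 0.05. Apart from the basement membrane group, Thbs1 and Sparcl1, the points lie below 0, and the 5 marked genes are at -1.76 to -2.10.

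Several of the genes are neighbours on a chromosome. Dcn and Lum lie 46984 bases apart on chromosome 10 and had log2 changes of -1.31 and -1.54. Col3a1 and Col5a2, 24614 bases apart on chromosome 1, were at -1.35 and -1.20, and Col6a1 and Col6a2, 85161 bases apart on chromosome 10, at -0.99 and -0.82. Col4a1 and Col4a2 lie head to head and share 22 bases on chromosome 8, and both were positive. Of the 5 genes that fell, none shares its neighbourhood with another of the 40 in these pairs.

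The same library was the lowest in most of the 40 genes. Shares over all genes were not computed for the lowest and highest libraries counted in this paragraph. Cre 8, which also had the highest mitochondrial share, was the lowest library in 35 of 40 genes, and wt 4 the highest in 21 and wt 2 in 11. Cre 9 was the highest in 5, of which 4 encode basement membrane proteins. Markers of the vessel wall were also spread among cre libraries. Of 12 vascular endothelium genes, cre 8 was lowest in 12 and cre 9 highest in 11. Their sums were 336 to 667 CPM in wt and 162, 1366 and 606 CPM in cre 8, 9 and 10, and the part of endothelium in the basement membrane values was not tested.

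Genes that mark fibroblasts without encoding matrix were next examined. The 20 fibroblast identity genes summed to 725 to 1197 CPM in wt and 255 to 723 CPM in cre. Of 16 tested, 13 were negative, with a median log2 change of -0.47. None passed by edgeR, and 3 were lower at an unadjusted p under 0.05 (5.98% of all genes). The chemokine gene Cxcl12, the highest per length, stood at 843, 699 and 490 CPM in wt and 161, 404 and 254 CPM in cre (-1.29, adjusted p = 0.137). Cd34 was at -0.93 with overlapping groups. Pdgfra and Pdgfrb, receptors that define fibroblasts and pericytes, were detected in all 6 macrophage libraries at 8.55 to 38.1 CPM and 13.9 to 71.0 CPM, and overlapped between genotypes (0.22 and -0.48). Their part in the matrix genes' change was not tested.

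Markers of other cell types were summed in the same way. The 10 smooth muscle genes summed to 396 to 473 CPM in wt and 289 to 662 CPM in cre, with 7 of 8 tested positive and 1 higher at an unadjusted p under 0.05. Acta2, smooth muscle actin, was at 0.04 and Actg2 at 0.84. The 7 pericyte genes summed to 80.9 to 167 CPM in wt and 32.0 to 273 CPM in cre, and 5 of 6 tested were positive (Rgs5 0.19, Kcnj8 0.33). The endothelial genes Plvap and Esam were at 0.50 and 0.30. The 12 macrophage identity genes summed to 7873 to 10807 CPM in wt and 12071 to 15861 CPM in cre, so that cre lay above. All 3 cre libraries stood above all 3 wt libraries in 7 of 12, against 9.71% of all genes. C1qb (0.65) and C1qa (0.53) were the highest per length. None of the 12 passed by edgeR, and at an unadjusted p under 0.05, 4 were higher (6.81% of all genes) and 1 lower (5.98%). The 12 epithelial genes summed to 87.9 to 494 CPM in wt and 137 to 330 in cre. Of these, 10 were negative and 2 positive, with a median log2 change of -0.38. None passed (Agr2 0.41, Lgals4 -0.50), and 1 was higher at an unadjusted p under 0.05.

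The 10 dendritic cell genes summed to 2093 to 3502 CPM in wt and 1629 to 1877 CPM in cre. Of the 10, 8 separated the genotypes with wt above (10.1% of all genes). At an unadjusted p under 0.05, 9 were lower (5.98% of all genes) and 1 higher (6.81%). Itgae, whose product CD103 was gated against, fell by 2.09 on the log2 scale, from between 15.8 and 23.1 CPM in wt to between 3.82 and 5.10 CPM in cre (edgeR adjusted p = 0.0165), while Ccr7 (-0.92) and Cd209a (-0.69) did not pass. Of the B and plasma cell genes (Jchain -0.33, Xbp1 -0.07), T cell genes (Il7r 0.30, Cd2 0.05), glial genes (S100b -0.09) and lymphatic endothelial genes (Mmrn1 -0.43, Flt4 0.55), none passed by edgeR. Most T cell genes were negative, 6 of 8 tested, with a median log2 change of -0.48 and a lowest of -4.93. Of 9 B and plasma cell genes tested, 7 were negative (median -0.33). At an unadjusted p under 0.05 (5.98% of all genes lower), 1 B and plasma cell gene and 2 T cell genes were lower. The 5 mesothelial genes were at or near 0, with sums of 0 to 1.59 CPM (Krt5 and Lrrn4 at most 0.955 and 0.636 CPM). How far these cells' RNA bears on the matrix genes was not tested.

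**Figure D3:**
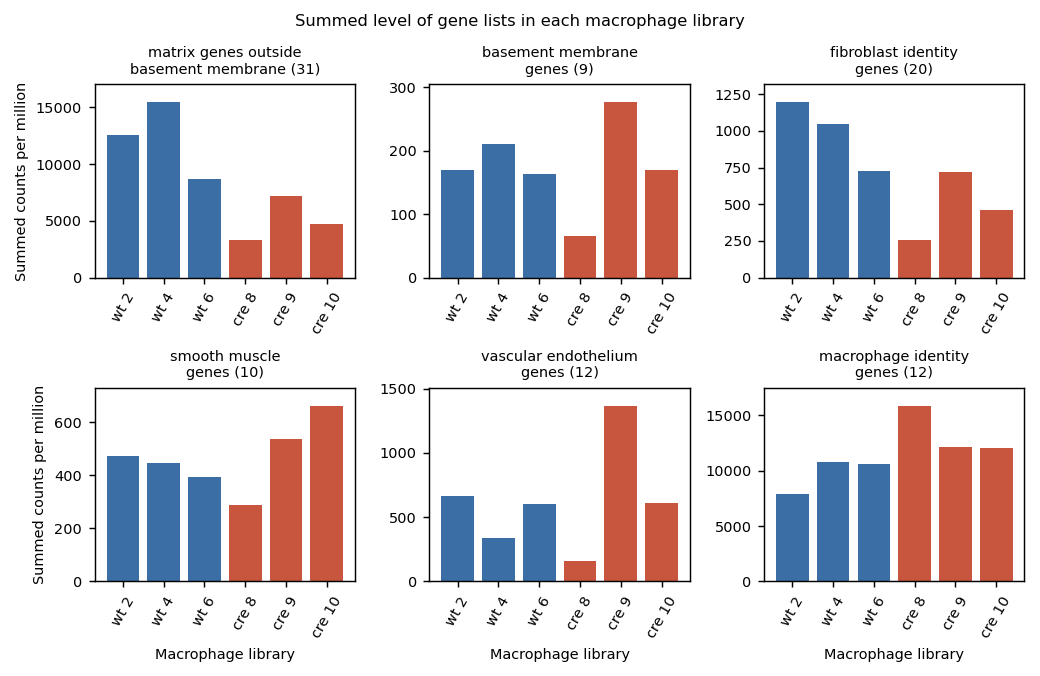
Summed CPM of 6 gene lists in each macrophage library (blue, wt 2, 4 and 6; red, cre 8, 9 and 10; each panel has its own axis from 0). The 31 matrix genes outside the basement membrane group sum to 8645 to 15458 in wt and 3350 to 7159 in cre, and smooth muscle and vascular endothelium genes overlap between genotypes.

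Enzymes that modify and cross-link collagen gave a further view of the same pathway. Of 30 such genes, 26 were tested in macrophages, 22 had a negative log2 change (median -0.53) and none passed by edgeR. At an unadjusted p under 0.05, 12 of the 26 were lower, against 5.98% of all genes. Pcolce, which encodes the enhancer of procollagen C-propeptide cleavage, stood at 316, 341 and 133 CPM in wt and at 59.7, 123 and 58.7 CPM in cre (-1.69, SE 0.42, adjusted p = 0.144). P4hb, a subunit of prolyl 4-hydroxylase that also serves as a general folding enzyme, had a log2 change of -0.26 and was at a mean of 1112 CPM in epithelial libraries. Of 18 tested genes for collagen and matrix receptors, 10 were negative and 8 positive, and none passed (Sdc4 0.47, Cd44 -0.25). At an unadjusted p under 0.05, 3 of these were lower (5.98% of all genes) and 1 higher (6.81%). Of 28 other collagen genes, 7 had enough counts for the test and none passed (Col16a1 -0.66, Col8a1 0.14; 1 lower at an unadjusted p under 0.05).

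The epithelial libraries served as the reference for carried-over RNA. All 40 genes were at least 2-fold higher in macrophage than in epithelial libraries (edgeR adjusted p under 0.05), a call made for 29.7% of 16375 genes tested, while 22.5% were lower. The median log2 difference was 9.07, against 0.07 over all genes. These values rest on few epithelial counts: 29 of the 40 genes had an epithelial mean under 0.321 CPM, the mean worth of 3 counts per library. With those 29 set to that floor the median was 6.94. Summed over the 40 genes, epithelial libraries held 70.9 to 139 CPM, which is 1.11% of the macrophage mean. Without Thbs1 and Fbln1 the sum was 5.21 to 19.3 CPM, or 0.152% of the macrophage mean. For comparison, macrophage identity genes in epithelial libraries stood at 0.539% of their macrophage mean.

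Col3a1 stood at 1277 ± 755 CPM (SD, n = 6) in macrophage and 1.51 ± 1.1 CPM (SD, n = 8) in epithelial libraries. Dcn stood at 640 ± 353 and 0.804 ± 0.475 CPM, and Adamdec1, with the largest difference among genes with more than 3 epithelial counts, at 1166 ± 852 and 0.743 ± 0.632 CPM (log2 difference 10.83, SE 0.38). Col5a3 and Col4a6 had no count in any epithelial library. Against the floor of 0.321 CPM they were at least 59.1-fold and 7.37-fold higher in macrophage libraries. Another 7 genes had 1 to 3 epithelial counts in all.

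Among the 38 genes with an epithelial count, the fitted difference was smallest in Thbs1, Fbln1 and Col18a1. Thbs1, an activator of latent TGF-beta that many cell types make, stood at 308 ± 47.8 CPM (SD, n = 6) in macrophage and 56.2 ± 23.6 CPM (SD, n = 8) in epithelial libraries (log2 difference 2.46, SE 0.24). Fbln1 stood at 697 ± 539 and 30.1 ± 7.83 CPM (4.26, SE 0.20). Col18a1 was at 39 ± 17.4 and 1.19 ± 0.402 CPM (4.99, SE 0.32).

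**Figure D4:**
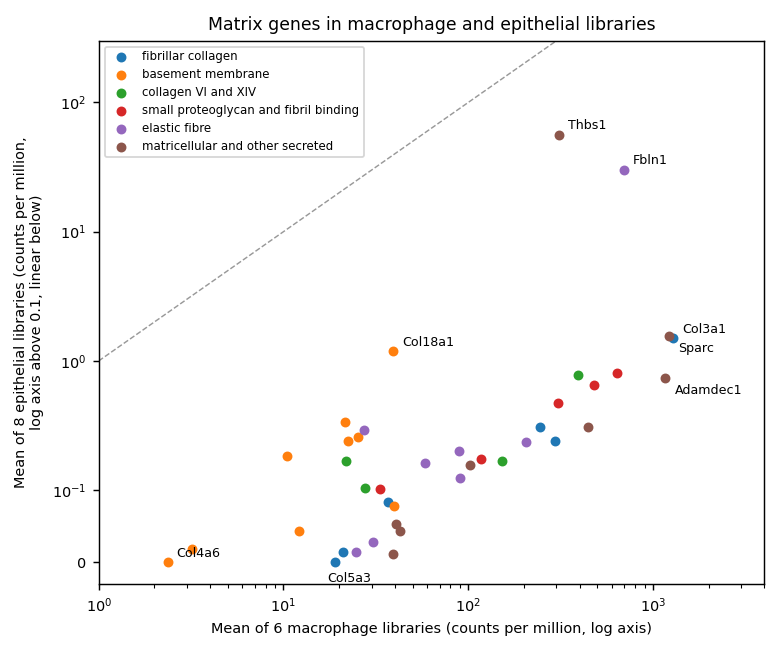
Mean level of each matrix gene in the 6 macrophage libraries (x) and the 8 epithelial libraries (y), in CPM, on log axes that turn linear below 0.1 on y; the dashed line marks equal levels and colours mark the role. Thbs1 and Fbln1 stand above the rest at 56.2 and 30.1 CPM in epithelial libraries, and all genes lie below the line.

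Within the epithelial libraries only 5 of the 40 genes had enough counts to be tested for genotype: Col3a1, Col18a1, Fbln1, Sparc and Thbs1. Col3a1 passed the count filter through its wt libraries, with 19, 14, 26 and 17 counts in wt against 6, 7, 14 and 3 in cre, and its value is therefore given as a description. It was the 1 call among the 5 (log2 change -1.67, SE 0.46, edgeR adjusted p = 0.0374), where 3.53% of the 13553 genes tested were called lower and 5.64% higher. Because Col3a1 entered through the group where it was higher, this call is not read as a test of genotype. Its levels were 2.13, 1.53, 3.72 and 1.82 CPM in wt 2, 4, 6 and 7 and 0.520, 0.822, 1.23 and 0.274 CPM in cre 5, 8, 9 and 10, so the groups did not overlap at these few counts. The call on Col3a1 was lost without wt 2 or wt 6, and without cre 5, 9 or 10. Thbs1 (-0.12), Col18a1 (-0.18) and Sparc (-0.71) did not pass.

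Fbln1, alone of the 40 genes, had a genotype change that differed between the 2 cell types by test, and the call was lost once sex was taken into account. In epithelial libraries it stood at 20.4, 33, 20 and 23.9 CPM in wt 2, 4, 6 and 7 and at 35.8, 29.8, 39.6 and 38.2 CPM in cre 5, 8, 9 and 10. Wt 4 lay above cre 8, and the log2 change of 0.55 (SE 0.17) missed the threshold (edgeR adjusted p = 0.0523). In macrophages the same gene fell by 1.91 on the log2 scale. The difference between the 2 changes was -2.48 (SE 0.37, edgeR adjusted p = 0.00738), a call in this direction made for 0.232% of 16375 genes, and in the opposite direction for 0.47%. With a sex term in each cell type the difference was -1.54 (SE 0.30, edgeR adjusted p = 0.0628), and in males alone it was -1.68 (SE 0.32, edgeR adjusted p = 0.0904), both chosen after seeing the data. The other 39 genes gave no call for the difference by edgeR, or by DESeq2, which called 2.11% of all genes in this direction and 2.18% in the other. At an unadjusted p under 0.05, met by 15.3% of all genes, Nid1 alone was added, in the opposite direction (2.93). Of the 40 genes, 35 had too few counts to be tested for genotype within the epithelial libraries.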

How the data were processed

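RNA of 14 libraries (6 macrophage, 8 epithelial) was amplified with Smart-seq2, tagged with Nextera XT and read as 50 bp single reads without strand, per the labels' protocols. STAR 2.5.2b, Picard 2.19.2, DESeq2 1.24.0 and GRCm38 appear in the submitters' processing notes; what each did is not given in the sources used here, nor are the counter and the annotation release. The authors deposited raw counts per gene and a table of FPKM. For 14867 genes, each deposited FPKM value was the count over a gene value and a library factor.

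The counts went through edgeR 4.0.16 (R 4.3.3) with TMM, filterByExpr (minimum count 10), a robust quasi-likelihood F test per gene and Benjamini-Hochberg adjustment over all genes, called under 0.05. Macrophage and epithelial libraries were each fitted alone on genotype. The cell type difference, which also needed a log2 change of 1, and the difference of genotype effects used all 14 libraries in 4 groups. SE is the log2 change over the square root of F, and CPM used the 14-library TMM sizes. Settings varied in turn were RLE scaling, DESeq2 1.42.0, the low-count filter, a sex term, male mice alone, a joint fit of every library, limma 3.58.1 on log2(FPKM + 1) or log2(FPKM + 0.1) at a mean FPKM of 1, a replicate block by mouse, and removal of single libraries. Leaving out cre 8 with wt 2, or ribosomal RNA and mitochondrial genes, was chosen after seeing the data. So were the sex settings for the difference of effects, and male mice alone and removal of single libraries for the summed level. Simulated counts with known changes served as a check of the scripts.

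The 40 genes and all lists were chosen with earlier results of these data known. Values in every macrophage library are given for genes past the adjusted threshold and for the 2 of each role with the highest mean FPKM. From each other list, genes past the threshold and the 2 with the highest FPKM are named; others named were chosen after their values were seen. The symbol Ccl21a matched more than 1 gene and was left out. The titles carry 4 wt mouse numbers and the series text states 3 control mice, so epithelial libraries may share an animal. With 3 against 3 libraries an exact permutation test of a single value cannot give a two-sided p below 0.1. Among the genes so named, 1 is not reported here.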

Additional observations from a re-analysis of the deposited data

Results flagged for a closer look

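Fbln1, the fibulin-1 gene, was the 1 result among those examined that differed between cell types by a test of the difference itself. Its genotype change in macrophages minus that in epithelial libraries was -2.48 on the log2 scale (SE 0.37, edgeR adjusted p = 0.00738). The wt macrophage libraries held 1104 ± 478 CPM (SD, n = 3) and the cre ones 290 ± 50.8 CPM (SD, n = 3). The epithelial libraries held 24.3 ± 6.04 CPM (SD, n = 4) for wt and 35.9 ± 4.30 CPM (SD, n = 4) for cre. The difference passed in 18 alternatives without a sex setting, from -2.24 without wt macrophage 2 to -2.80 without wt macrophage 6. It missed the threshold with a sex term in each cell type (-1.54, adjusted p = 0.0628) and in males alone (-1.68, adjusted p = 0.0904). The male wt macrophage library held 557 CPM and the 2 female ones 1438 and 1318 CPM, and all 3 cre macrophage libraries were male. The macrophage part of both sex settings therefore rests on that 1 wt library. Within macrophages the fall of Fbln1 passed under 4 of 14 alternative settings. In the epithelial libraries, 12 tests for a single distant library among the 4 of a genotype found none. They covered the summed level and the genes tested there, and macrophage libraries were not tested in this way.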

How the results depend on the processing

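The number of the 40 matrix genes that fell in cre macrophages (5) depended on the setting. It was 17 by DESeq2 (1.8% of all genes), 8 with no filter on low counts (0.444%), 11 with all 14 libraries in one fit (0.831%), 0 with sex as a covariate, 0 in males only (0.0767%), and 0 to 6 when 1 macrophage library was left out. It was 1 without cre 8 and wt 2 together (0.111%). In males only the wt arm is 1 library, assumed to vary like the others. With sex as a covariate the change in macrophages rests on that same wt library. Left-out fits have fewer samples. Over these settings the genes with a negative change numbered 31 to 39. C1qtnf3 and Ccdc80 passed in 8 of 14 alternative settings, Fbln5 and Mfap4 in 7 and Fbln1 in 4. In epithelial libraries the 1 gene that fell was Col3a1, which passed the count filter through its wt libraries, so this count is a description. The count was 2 with no filter (2.86% of all genes), 0 in males only (0.036%) and 0 in the fit of all 14 libraries (0.0611%). It was 0 by limma on FPKM with a pseudocount of 1 (2.34%) or 0.1 (2.23%), where Col3a1 was below the FPKM minimum, and 0 to 1 without 1 library. The count that rose (0) was 1 by DESeq2 (8.22%), 1 with no filter (3.72%), 1 with sex as a covariate (6.8%), 1 by limma on FPKM with a pseudocount of 1 (10.9%) or 0.1 (10.7%), and 0 to 1 without 1 library; each of these was Fbln1. Col4a2 in macrophages ran from -0.15 (without cre 9) to 0.86 when 1 library was left out. Among epithelial libraries Col18a1 turned to 0.0043 with sex as a covariate and ran from -0.34 to 0.17 without 1 library (0.17 without wt 4), and Thbs1 from -0.60 to 0.11 (0.014, 0.11 and 0.064 without cre 10, cre 5 and wt 6). The cause was not tested. The summed level, as the mean log2 difference of cre and wt, was -1.56 to -1.0 without 1 library and -0.82 in males only. The call for the difference of effects (1 gene, Fbln1) was 0 with a sex term in each cell type (0.0244% of all genes) and 0 in males only (0.0283%). Whether equal mouse numbers mean the same animal is not known. Correlations of same-numbered libraries were -0.061 to 0.092, but values across 2 cell types cannot settle it, and the main fits were unpaired. With the replicate block, 40 of 40 genes were higher in macrophage libraries. Fbln1 was then the 1 call for the difference of effects (-2.44, edgeR adjusted p = 0.0331). Within a cell type the genotypes share no mouse number. Low epithelial counts limit what can be tested there, and counting error alone is covered by the floors.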
